A study of Mus musculus with 24 samples.

Results

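Each of 6 mice gave paired 3'Pool-seq libraries, made from RNA of the frontal cortex, that differed in the amount of cDNA put into the tagmentation reaction, 2 ng or 1 ng. Members of the comparison were chosen by the library labels alone: 12 libraries at 2 ng were set against 12 at 1 ng, paired by mouse, and this takes up all 24 libraries of the series. The mice were 3 WT and 3 homozygous GFAP-IL6 animals on the C57BL/6 strain, 3 months old, and GFAP-IL6 mice carry an Il6 transgene under the astrocyte promoter of Gfap. Every mouse was sampled at both amounts in set A and again in set B, and what set A and set B stand for is not given in the labels. No treatment was applied to either genotype. Per library 1524165 to 12256374 reads were counted, and the total at 2 ng was on average 0.820 times that at 1 ng in set A and 0.621 times in set B. It was lower with 2 ng for all 6 mice of both sets (two-sided exact permutation test on pairs, p = 0.031, the lowest value 6 pairs can give). Each mouse took nearly the same share of every group's counts, so the 6 ratios of a set may repeat a single ratio between groups. Il6 itself had 0 to 2 counts in the WT libraries, 7 of 12 being at 0, and 3 to 51 counts in the 12 GFAP-IL6 libraries, with no overlap between the genotypes.

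In 3'Pool-seq each RNA is copied from its polyA tail with an oligo-dT primer that carries the sample index, the cDNA of many samples is pooled and amplified, and the Tn5 transposase then cuts the cDNA and attaches adapters in a single step called tagmentation. Only fragments that hold the polyA end are kept, so a read reports the last stretch of a transcript. Reads are counted after amplification, and the deposited values are counts of reads, not of molecules. Tn5 is used up as it cuts, so the ratio of enzyme to cDNA sets the fragment length, and fragments outside the length window are lost in clean-up and sequencing. Genes whose 3' end is short, repeated elsewhere in the genome or not polyadenylated are known as difficult targets for such counting. Both libraries of a pair came from the same animal, so the comparison holds the mouse constant and asks which genes are read differently at the 2 amounts.

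The labels do not say which libraries shared a reaction, and the study's protocol pools samples before tagmentation. A mouse took nearly the same share of the counts in each of the 4 groups of 6 libraries, such as 32.9% to 33.8% for GFAP-IL6 mouse 3 and 16.5% to 17.2% for WT mouse 1. If the 6 libraries of a group were 1 reaction, the 6 paired differences repeat a single pair of reactions, the p-values measure the spread between mice only, and the amount of cDNA cannot be told apart from anything else that differed between those reactions.

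The 2 ng libraries of set A lay farthest from the rest, and the 1 ng libraries of the 2 sets lay closest together. Between sets A and B at a fixed amount, 4118 of 12711 genes were called at 2 ng (32.4%) and 695 of 13048 at 1 ng (5.33%), where called means a Benjamini-Hochberg adjusted p under 0.05 in edgeR's quasi-likelihood test with the mouse as a block. Over 12445 genes tested in every contrast, the median absolute log2 fold change was 0.185 between the sets at 2 ng, 0.0984 between the sets at 1 ng, 0.166 between the amounts in set A and 0.126 between the amounts in set B. It was 0.201 between 2 ng of set A and 1 ng of set B, and 0.166 between 2 ng of set B and 1 ng of set A. The sets made with the same 2 ng thus differed by about as much as the amounts did. The values below are given for each set, with weight on genes called with one sign in both.

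In set A 1948 of 12869 genes were called higher with 2 ng (15.1%) and 1958 higher with 1 ng (15.2%). In set B the calls were 1260 of 12778 (9.86%) and 1332 (10.4%). With library totals alone in place of TMM scaling, set A gave 2557 and 1525 calls, 62.6% of them higher with 2 ng in place of 49.9%. Without the mouse as a block the calls fell to 2195 in set A and 771 in set B. Most differences were small: 160 calls in set A and 61 in set B exceeded an absolute log2 fold change of 1. Of 12592 genes tested in both sets, 583 were called higher with 2 ng in both (4.63%) and 858 higher with 1 ng in both (6.81%), which is 36.9% of the set A calls and 55.6% of the set B calls. A further 129 genes were called in both sets with opposite signs. Without the mouse block 532 genes were called with one sign in both sets, and with DESeq2 919. With library totals alone 793 genes were called higher with 2 ng in both sets and 715 higher with 1 ng. Which direction held more calls thus depended on the scaling, and the shares over all genes used below are those with TMM. Across genes the log2 fold changes of the sets correlated at r = 0.51 (Spearman rho = 0.39, n = 12592 genes). This is given as a description, since the genes share libraries and are no replicates. Over the 1892 genes with at least 100 CPM the correlation was r = 0.76. CPM is a gene's count divided by the total of its library and put on a common scale for all libraries. The total is TMM-scaled for values of single libraries and their medians. Abundance classes and cut-offs use the mean CPM over 24 libraries with unscaled totals.

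**Figure D1:**
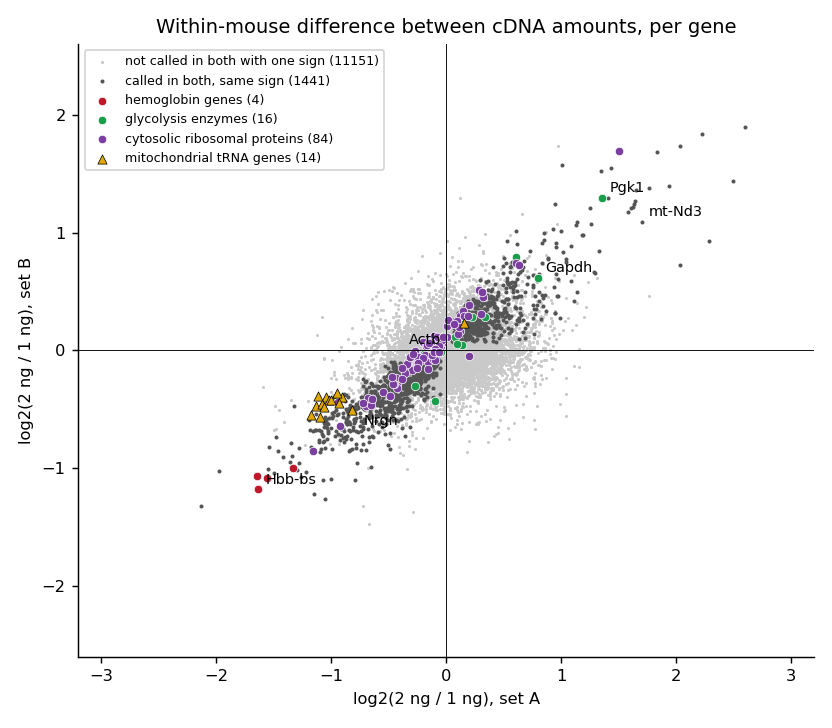
Each point is a gene tested in both sets, with its log2 fold change of 2 ng over 1 ng in set A on the x axis and in set B on the y axis, as fitted by edgeR over 6 mice. The 1441 genes called in both sets with one sign are dark, the 4 hemoglobin genes lie at the lower left, 13 of 14 mitochondrial tRNA genes lie left of 0 with set A values near -1, and Pgk1, Gapdh and mt-Nd3 lie at the upper right.

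Among genes called with one sign in both sets, 38 exceeded an absolute log2 fold change of 1 in both, 24 higher with 2 ng and 14 higher with 1 ng. This group mixed gene types: 31 were protein-coding, and 19 had under 10 CPM. Among those higher with 2 ng were Cxx1c, by 2.22 ± 0.11 (SE) in set A and 1.84 ± 0.10 in set B on the log2 scale, and Kctd17, a protein of the potassium channel tetramerisation domain family, by 2.03 ± 0.08 and 1.74 ± 0.08. Kctd17 was at 15.1 to 21.4 CPM in the 6 libraries at 1 ng of set A and at 49.9 to 90.4 CPM at 2 ng. In set B it was at 18.1 to 22.7 CPM and at 46.8 to 83.6 CPM, so the amounts did not overlap in either set. Gm8797, a single-exon gene at chr3:5750806-5751295 (mm10, forward strand), had a median of 33.6 CPM at 1 ng and 127 CPM at 2 ng in set A, and of 39.0 CPM and 128 CPM in set B. In 6 of 6 mice it was higher with 2 ng in each set, as the plot of 6 genes by mouse shows. Of the 8 genes with the largest differences in this direction, Gm28285, Mrps18b, Rnf39 and Mir7666 had under 10 CPM, and Mir7666 overlaps Fgf20 on the same strand.

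Red blood cell genes gave the largest shifts toward 1 ng among genes with at least 50 CPM. Hemoglobin alpha chains (Hba-a1 and Hba-a2) and beta chains (Hbb-bs and Hbb-bt) form the oxygen carrier of red blood cells, and in cortex they report blood left in the vessels. All 4 were higher with 1 ng in both sets, against 15.2% and 10.4% of all genes. Hbb-bs (chr7:103826534-103828096, reverse strand, 3 exons) ran from 456 to 666 CPM over the 6 mice at 1 ng of set A (median 549) and from 139 to 223 CPM at 2 ng (median 176). In set B it ran from 479 to 775 CPM at 1 ng (median 560) and from 198 to 338 CPM at 2 ng (median 253). The groups did not overlap, and Hbb-bs was 3.10-fold higher with 1 ng in set A (log2 fold change -1.63 ± 0.03, adjusted p = 1.03e-75) and 2.26-fold higher in set B (-1.18 ± 0.03, adjusted p = 7.57e-61). Hba-a1 (chr11:32283511-32284465, forward strand, 3 exons) had medians of 224 and 74.2 CPM at 1 ng and 2 ng of set A and of 237 and 116 CPM in set B. The log2 fold changes of the 4 genes lay between -1.65 and -1.33 in set A and between -1.18 and -1.0 in set B. Alas2, the red cell enzyme that opens heme synthesis, was looked at after these values were seen. It had 1.95 to 9.78 CPM over the 24 libraries and log2 fold changes of 0.06 ± 0.25 (adjusted p = 0.902) and -0.32 ± 0.19 (adjusted p = 0.263), so it did not pass the test. Hemoglobin genes have near-identical copies: 58.9% to 89.1% of the 40-base words in their last 1000 bases also occurred in another gene, while Alas2 had none. Reads that fit 2 copies equally are not counted by a unique-alignment rule, and the part of this in the shift was not tested.

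**Figure D2:**
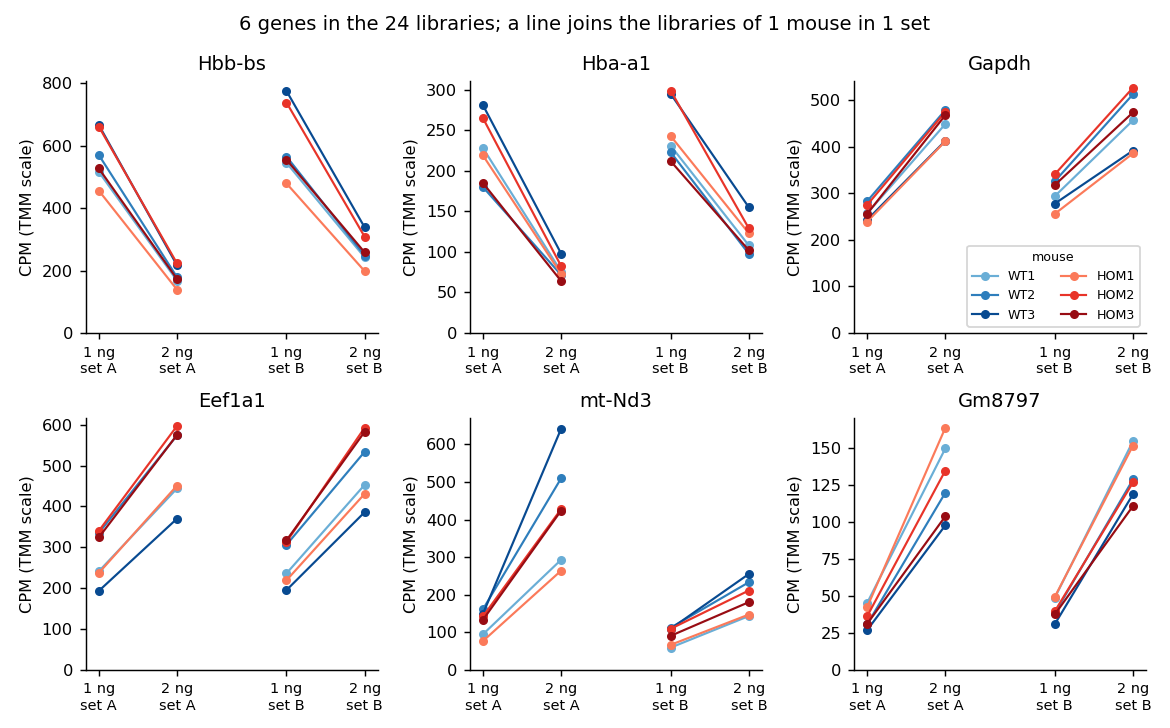
CPM on the TMM scale (y axis, from 0) of 6 genes at 1 ng and 2 ng of sets A and B, with a line for each of the 6 mice. Hbb-bs and Hba-a1 fall from 1 ng to 2 ng in every mouse and set, and Gapdh, Eef1a1, mt-Nd3 and Gm8797 rise, while WT and GFAP-IL6 mice are interleaved.

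Mitochondrial transcripts moved in both directions. The mitochondrial genome is copied as long precursors that are cut at the tRNAs, which frees messenger RNAs with a short polyA tail, 2 ribosomal RNAs and tRNAs without a full tail. Of 22 tRNA genes 14 were tested in both sets, and 13 of them were higher with 1 ng in both, with log2 fold changes from -1.18 to -0.82 in set A and from -0.56 to -0.36 in set B. The exception was mt-Tw, at 0.15 ± 0.06 in set A and 0.24 ± 0.05 in set B, higher with 2 ng in 5 and 6 of 6 mice. It overlaps mt-Nd2 by 2 bases on the same strand, and mt-Nd2 was at 0.12 and 0.06. In the same way mt-Ti overlaps mt-Nd1, which was at 0.12 and 0.08, and mt-Ti was at -1.0 and -0.42. The sequences of mt-Tw and of mt-Tc, the tRNA gene with the largest set B shift, are shown because these tRNAs moved in opposite directions. They are written 5' to 3' on the RNA strand from GENCODE vM21 on mm10, chrM:4950-5016 (forward) and chrM:5192-5257 (reverse).
mt-Tw: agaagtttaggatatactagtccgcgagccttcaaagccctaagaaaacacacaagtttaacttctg
mt-Tc: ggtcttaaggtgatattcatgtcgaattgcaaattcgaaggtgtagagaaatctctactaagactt

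Level by level, mt-Tc ran from 390 to 686 CPM at 1 ng of set A and from 187 to 351 CPM at 2 ng, and from 302 to 544 CPM and from 202 to 361 CPM in set B, so the amounts did not overlap in set A and did in set B. Within each mouse it was higher with 1 ng in 6 of 6 in both sets. The ribosomal RNA genes mt-Rnr1 and mt-Rnr2 were also higher with 1 ng, at -0.30 and -0.34 in set A and at -0.30 and -0.29 in set B. Of 8 protein genes of the mitochondrial DNA that were tested, 5 were higher with 2 ng in both sets, 1 was higher with 1 ng in both (mt-Nd6, the one coded on the other strand, at -0.26 and -0.35), and 2 were called in opposite directions in the sets, mt-Cytb at -0.06 and 0.05 and mt-Nd4 at 0.05 and -0.14. The largest shift was that of mt-Nd3, a subunit of complex I (chrM:9459-9806), which rose 3.25-fold in set A and 2.13-fold in set B, from a median of 137 to 426 CPM and from 99.5 to 196 CPM. For mt-Co1, a subunit of complex IV, the rise was 1.49-fold and 1.5-fold. Of the 40-base words in mt-Nd3 98.1% also occurred in another gene, and of those in mt-Co1 64.6%. Of the other protein genes of the mitochondrial DNA, mt-Co2, mt-Atp8, mt-Atp6, mt-Co3 and mt-Nd4l had 0 to 4 counts in any library, so no amount effect could be read for them.

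Protein synthesis genes split. Cytosolic ribosomal proteins are short, abundant and accompanied by many processed pseudogenes. Of 84 tested, 16 (19.0%) were called higher with 2 ng in both sets and 33 (39.3%) higher with 1 ng in both, against 4.63% and 6.81% of all genes, and the list's median log2 fold change was -0.17 in set A and -0.04 in set B, against 0.01 and 0.00 over all genes. Rps14, the most abundant member, was at -0.34 ± 0.02 and -0.12 ± 0.02. Rpl23a had the largest shift toward 1 ng in the list, at -1.16 ± 0.04 and -0.85 ± 0.04. Nuclear subunits of oxidative phosphorylation also split, with 13 (15.9%) higher with 2 ng and 21 (25.6%) higher with 1 ng in both sets of 82 tested. Among all genes at 100 to 1000 CPM these shares were 13.7% and 19.8%. Cox6a1 of complex IV was at -0.36 ± 0.02 and -0.13 ± 0.01, while Ndufs5 of complex I was at 0.88 ± 0.04 and 0.78 ± 0.04. Of 37 proteasome subunits 5 (13.5%) were higher with 2 ng in both sets, Psmb5 among them. The 3 that were higher with 1 ng (8.11%), Psmb3 among them, were near the share over all genes.

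Glycolysis enzymes moved mainly one way. Of 16 tested, 7 (43.8%) were higher with 2 ng in both sets and 1 (6.25%) was higher with 1 ng, against 4.63% and 6.81% of all genes, and the median log2 fold change was 0.08 in set A and 0.11 in set B. Pgk1 rose 2.56-fold in set A and 2.46-fold in set B, and Gapdh (chr6:125161715-125166467) rose 1.74-fold and 1.53-fold. Gapdh was at 239 to 283 CPM at 1 ng of set A and at 412 to 479 CPM at 2 ng, and in set B at 256 to 341 CPM and 386 to 528 CPM, with no overlap in either. Aldoa, the most abundant member, was at 0.13 ± 0.02 and 0.04 ± 0.02. Of the 40-base words of Gapdh 96.6% and of those of Pgk1 56.5% were shared with another gene.

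Genes used as internal references did not stay level. Of 15 common reference genes tested, 5 (33.3%) were higher with 2 ng in both sets and 2 (13.3%) were higher with 1 ng, and their log2 fold changes ran from -0.39 to 1.35 in set A and from -0.28 to 1.30 in set B. Actb was at -0.39 ± 0.02 in set A and 0.01 ± 0.01 in set B (adjusted p = 0.617), and Eef1a1, the elongation factor that brings tRNAs to the ribosome, rose 1.78-fold and 1.89-fold. The count of Gapdh per count of Actb within a library was 0.105 ± 0.0175 (SD, n = 6) at 1 ng and 0.238 ± 0.0360 at 2 ng of set A, and 0.114 ± 0.0233 and 0.173 ± 0.0359 in set B. Within a mouse this ratio was 2.19 to 2.4 times as high at 2 ng in set A and 1.44 to 1.59 times as high in set B (6 of 6 mice in each, two-sided exact permutation test on pairs, p = 0.031).

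Lists of neuronal genes are read against 6.81% of all genes higher with 1 ng and 4.63% higher with 2 ng in both sets. Among all genes at 100 to 1000 CPM these shares were 19.8% and 13.7%. Of 13 calmodulin and calcium-binding proteins 6 (46.2%) were higher with 1 ng and 2 (15.4%) higher with 2 ng in both sets. Nrgn, neurogranin, which holds calmodulin at the synapse, was at 3228 to 3908 CPM at 1 ng of set A and at 1869 to 2404 CPM at 2 ng, and at 3276 to 4047 CPM and 2087 to 2622 CPM in set B. These groups did not overlap, and Nrgn was 1.72-fold and 1.6-fold higher with 1 ng, and none of its 40-base words was shared with another gene. Of 22 synaptic vesicle and release genes 5 (22.7%) were higher with 1 ng and 1 (4.55%) higher with 2 ng in both sets, with Stx1a at -0.28 ± 0.03 and -0.37 ± 0.03. Snap25, the most abundant of these, was at 0.43 ± 0.01 in set A and at -0.03 ± 0.01 in set B (adjusted p = 0.173). Of 59 potassium channel genes tested in both sets 8 (13.6%) were higher with 1 ng and 2 (3.39%) with 2 ng, and Kcna6, a Kv1 channel subunit, was 2.06-fold and 1.68-fold higher with 1 ng. Voltage-gated sodium and calcium channel alpha subunits had 2 of 12 higher with 1 ng in both sets (Cacna1a and Scn1a) and none higher with 2 ng. Grin2b, an NMDA receptor subunit with a 3' untranslated region of 18865 bases in the annotation used, was at -0.65 ± 0.03 and -0.36 ± 0.02, and it was the only 1 of 23 glutamate receptor genes called with one sign in both sets. Of 12 GABA-A receptor genes 1, Gabra3, was called with one sign in both sets, at -0.68 ± 0.11 and -0.31 ± 0.11. Immediate early genes had 3 of 17 higher with 1 ng in both sets and none higher with 2 ng, Dusp1 being at -0.53 ± 0.09 and -0.71 ± 0.09. Of 12 neuropeptide genes tested in both sets 1 was called with one sign in both, higher with 2 ng, Npy at 0.10 ± 0.02 and 0.31 ± 0.02, while Cck was called in opposite directions (-0.14 and 0.11).

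Glial lists held calls in both directions. Of 13 myelin genes 6 (46.2%) were higher with 1 ng and 2 (15.4%) higher with 2 ng in both sets, against 6.81% and 4.63% of all genes. Mbp, myelin basic protein, was at 0.22 ± 0.01 and 0.17 ± 0.01, while Mog was at -0.49 ± 0.06 and -0.32 ± 0.06. Trf, transferrin, was at -1.16 ± 0.05 and -0.69 ± 0.04. Of 18 astrocyte genes 4 (22.2%) were higher with 2 ng and 2 (11.1%) higher with 1 ng in both sets, with S100b at -0.41 ± 0.03 and -0.15 ± 0.03. Of 18 microglia genes 1 was higher with 2 ng (Fcrls, 5.56% of the list) and 2 with 1 ng (11.1%), and C1qa, a chain of complement C1q, was 1.98-fold and 1.47-fold higher with 1 ng. Of 14 endothelial genes 1, Ly6c1, was called with one sign in both sets, higher with 2 ng. Of the markers of each cell type, all 5 oligodendrocyte markers were called in both sets, 2 higher with 2 ng and 3 higher with 1 ng. Of 5 neuron markers 2 were higher with 1 ng in both sets, and of 5 microglia markers 1. Of 5 astrocyte markers 2 were higher with 2 ng in both sets (all 5 in set A), and of 5 endothelial markers 1. Within a single set directions were mixed. In set A 2 neuron markers were called higher with 2 ng and 3 with 1 ng, and endothelial markers had 2 and 1. Microglia markers had 1 higher with 2 ng and 1 with 1 ng in set A, and 2 and 1 in set B. Of 3 choroid plexus markers tested in both sets none was called with one sign in both sets.

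Other lists are read against the same shares of all genes, 4.63% and 6.81%. Of 31 serine-arginine and hnRNP splicing factors 4 (12.9%) were higher with 2 ng and 2 (6.45%) with 1 ng, with Hnrnpa1 at 0.93 ± 0.12 and 0.54 ± 0.13. Among 255 zinc finger genes named Zfp and tested in both sets, 9 (3.53%) were higher with 2 ng and 6 (2.35%) with 1 ng in both, and the median log2 fold change was 0.10 and 0.06. No replication-dependent histone gene of 14 and 1 long noncoding RNA of 16, Snhg11, was called with one sign in both sets, and Malat1 was at -0.20 ± 0.01 and 0.00 ± 0.01. Of 33 neuroinflammation genes tested in both sets 1, C1qa, was called with one sign in both sets, and Gfap was at -0.03 ± 0.07 (adjusted p = 0.828) and 0.12 ± 0.06 (adjusted p = 0.172). Small differences depended on the test: with DESeq2 the set B calls of Aldoa, Cacna1a and Gabra3 and the set A calls of Fcrls, Ly6c1 and mt-Tw were lost, and without the mouse block those of Mbp, Aldoa, Cck, Fcrls, Ly6c1, mt-Cytb and mt-Tw in both sets and of Mog, Scn1a, Cacna1a, Gabra3, Rps14, Cox6a1, S100b and B2m in set B.

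By gene type, the summed counts of mitochondrial tRNA, ribosomal RNA and small RNA genes took larger shares at 1 ng. Mitochondrial tRNA genes held 0.154% ± 0.0333 (SD, n = 6) of counts at 2 ng and 0.294% ± 0.0519 at 1 ng of set A, and 0.175% ± 0.0366 and 0.228% ± 0.0363 in set B. Mitochondrial ribosomal RNA held 4.97% ± 0.98 at 2 ng and 6.03% ± 1.04 at 1 ng in set A, and 4.69% ± 0.97 and 5.65% ± 1.02 in set B. The shares of snoRNA, miRNA, miscellaneous RNA and other ribosomal RNA genes were also lower at 2 ng in 6 of 6 mice in both sets, with mean log2 ratios from -1.90 (ribosomal RNA, set A) to -0.16 (snoRNA, set B). Single genes did not all follow these sums: of 6 miRNA genes tested in both sets 2 were higher with 2 ng and 2 with 1 ng in both, with a median log2 fold change relative to all genes of 0.24 (set A) and 0.05 (set B). For snoRNA genes this median was -0.15 (set A) and 0.03 (set B), and 1 of 12 was higher with 2 ng and 4 with 1 ng in both. In set A the ribosomal RNA genes other than mitochondrial ones held 0.00227% at 2 ng and 0.00842% at 1 ng, and most of this was n-R5-8s1, a 5.8S ribosomal RNA gene, 4.39-fold and 2.50-fold higher with 1 ng. Protein-coding genes held 91.4% at 2 ng and 89.8% at 1 ng in set A, and 91.3% and 90.2% in set B. Each of these differences had an adjusted p of 0.0365 over 42 share tests (exact paired permutation tests, two-sided), the lowest that 6 pairs can give here. Long intergenic RNA was lower with 2 ng in set A only by this test (3.27% against 3.60%), and in set B the adjusted p was 0.352.

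Gene length, as deposited with the counts, went with the amount at both ends. Among genes under 500 bases the median log2 fold change, taken relative to that of all genes, was -0.34 in set A (SD of the 6 mouse medians 0.03) and -0.12 in set B (SD 0.09), below 0 in 6 and 5 of 6 mice. In both sets 42 of 108 such genes (38.9%) were higher with 1 ng and 12 (11.1%) higher with 2 ng. The shares over all genes were 6.81% and 4.63%. Genes of 500 to 1000 bases were at -0.06 in set A (0 of 6 mice above all genes) and 0.01 in set B (5 of 6). Genes of 1000 to 2000 bases were at 0.01 and 0.03, and genes of 2000 to 4000 bases at 0.02 in both sets. Above 8000 bases the median was -0.08 in set A (SD 0.01) and -0.06 in set B (SD 0.01), below that of all genes in 6 of 6 mice each, and 84 of 839 genes were higher with 1 ng in both sets against 9 higher with 2 ng. Genes of 4000 to 8000 bases lay between, at -0.01 and -0.02. Of 3783 such genes 226 (5.97%) were higher with 1 ng in both sets, slightly below the share over all genes. Another 85 (2.25%) were higher with 2 ng, also below that share. Protein-coding genes alone gave -0.20 and -0.04 under 500 bases and -0.08 and -0.06 above 8000 bases. The share of counts on genes under 500 bases was 1.58% at 2 ng and 1.93% at 1 ng in set A and 1.66% and 1.84% in set B. On genes above 8000 bases it was 5.59% against 5.81% and 5.63% against 5.79%. By the paired permutation test the adjusted p was 0.0365 for each, the value that most classes gave.

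**Figure D3:**
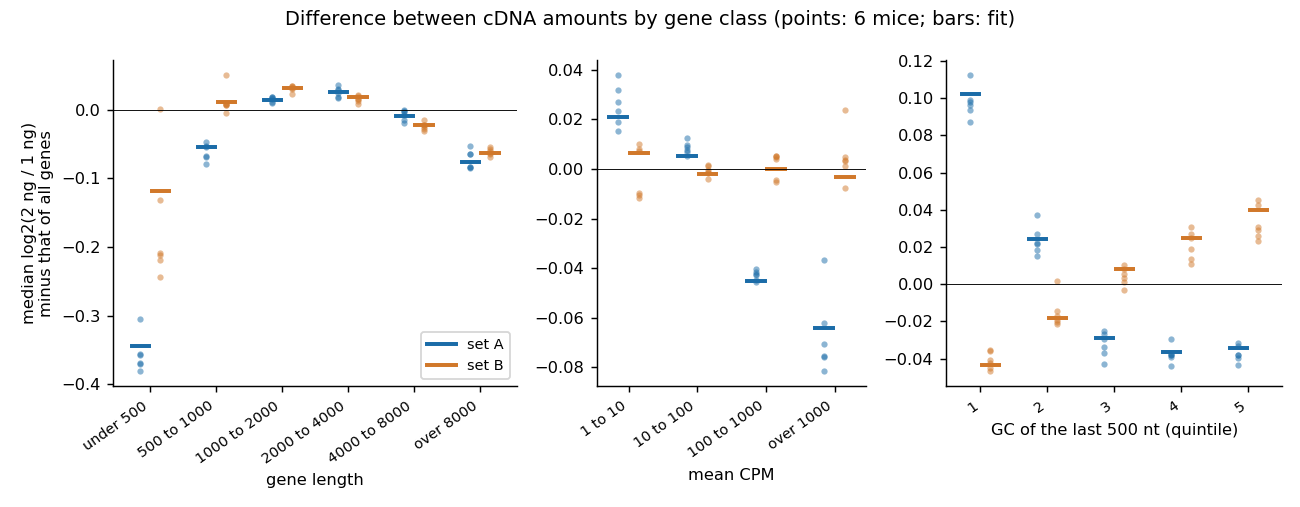
Median log2 fold change of 2 ng over 1 ng, minus that of all genes tested, for classes of gene length in bases, mean CPM and GC quintile of the last 500 bases, with the 3 panels on their own y scales. Bars are edgeR fits over 6 mice in sets A (blue) and B (orange), and points are the 6 mice, from log2 CPM with a prior count of 2. Both sets lie below 0 under 500 and over 8000 bases, and the GC panel runs in opposite directions in the 2 sets.

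Abundance set how often a difference was called more than its direction. In both sets with one sign 2.66% of genes at 1 to 10 CPM were called, 9.78% at 10 to 100 CPM, 33.6% at 100 to 1000 CPM and 55.0% of the 80 genes above 1000 CPM. Abundant genes have smaller counting errors, so a given fold change is called more often among them. By direction, 13.7% of genes at 100 to 1000 CPM were higher with 2 ng in both sets and 19.8% higher with 1 ng. At 1 to 10 CPM these shares were 1.22% and 1.44%. The gene lists above were set against all genes, not against genes of like abundance. The part of abundance in their shares was not tested. Class medians relative to all genes ran from 0.02 at 1 to 10 CPM to -0.06 above 1000 CPM in set A, and over the same classes lay within 0.01 of 0 in set B.

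The GC content of the transcript end did not give the same answer in the 2 sets. In the fifth of genes with the lowest GC in the last 500 bases (18.2% to 36.2%) the median relative to all genes was 0.10 in set A (6 of 6 mice above) and -0.04 in set B (0 of 6). In the fifth with the highest GC (51.4% to 74.5%) it was -0.03 in set A (0 of 6) and 0.04 in set B (6 of 6). Genes with the shortest 3' untranslated regions, up to 391 bases, also parted, at -0.03 and 0.03, while those above 2729 bases were below all genes in both sets, at -0.02 and -0.03. Last exons followed suit, at -0.03 and 0.03 up to 581 bases and at -0.02 and -0.03 above 3129 bases. These differences between sets were not tested.

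Sequence shared with other genes went with being called. Of genes with no 40-base word shared with another gene 9.75% were called in both sets with one sign, against 12.9% of those with up to 10% shared, 25% of those with 10% to 50% and 37.8% of those with over 50%. Since abundance also went with being called, the comparison was repeated at 100 CPM or more, where the shares were 31.2%, 37.7%, 45.8% and 56.6%. Both directions rose: among the 83 abundant genes with over 50% shared, 24.1% were higher with 2 ng and 32.5% higher with 1 ng, against 12.7% and 18.5% of the 1387 with none. Of 37 genes past a log2 fold change of 1 in both sets that have a value, 21 had over 10% shared and 14 had none, Kctd17 and n-R5-8s1 among the latter. This is a description, and the part of read assignment in the differences was not tested.

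**Figure D4:**
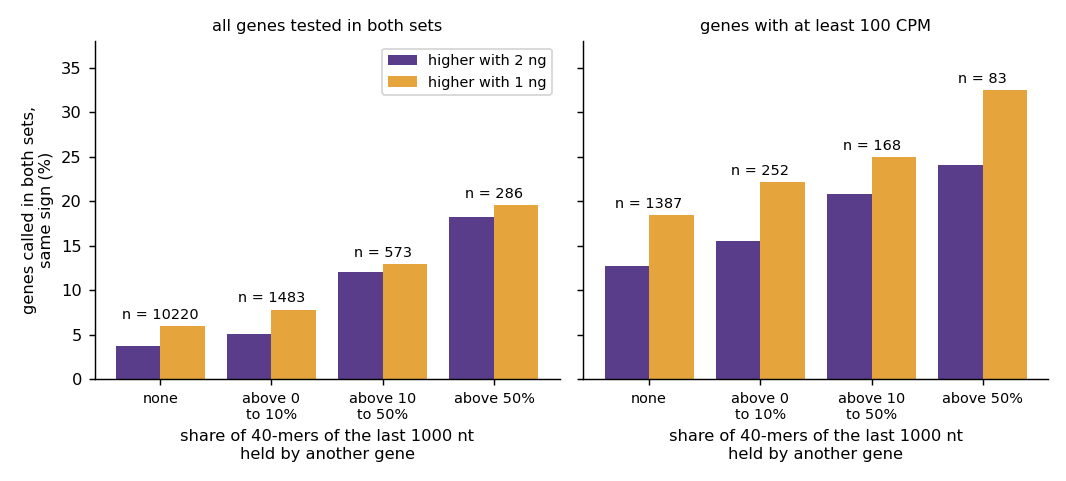
Percent of genes called in both sets with one sign (y axis) by the share of 40-base words in the last 1000 bases that another gene also holds (x axis), for all genes tested and for those with at least 100 CPM. Bars are genes higher with 2 ng (violet) and with 1 ng (yellow), n is the number of genes, and both bars rise from left to right in both panels.

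The amount effect itself differed between sets for 1466 of 13249 genes (11.1%, interaction of set and amount), 345 without the mouse block. B2m, the light chain of MHC class I, was at 0.34 ± 0.03 (6 of 6 mice higher with 2 ng) in set A and at -0.15 ± 0.03 (0 of 6) in set B. Gria2, an AMPA receptor subunit, did not pass in set A (adjusted p = 0.944) and was at -0.25 ± 0.02 in set B. Between genotypes no difference of the amount effect was called: 0 of 12869 genes (0%) of set A and 0 of 12778 (0%) of set B, with 510 and 525 genes at an unadjusted p under 0.05, and 0 calls with DESeq2. WT mice alone gave 686 genes called in both sets with one sign and GFAP-IL6 mice alone 954.

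GFAP-IL6 libraries were also set against WT libraries, 3 mice each, at matched and at crossed amounts. At crossed amounts the genotypes also differ in anything else that separated the groups of libraries. That cannot be told apart from the amount. A gene was counted here when it was called and changed by more than 1 on the log2 scale in either direction. At matched amounts 83 of 12190 genes passed at 2 ng (0.681%) and 96 of 12407 at 1 ng (0.774%) in set A, and 91 of 12233 (0.744%) and 98 of 12974 (0.755%) in set B. Of these 0, 2, 1 and 1 were lower in GFAP-IL6 mice. With GFAP-IL6 at 2 ng and WT at 1 ng, 303 of 12451 genes passed in set A (2.43%) and 197 of 12671 in set B (1.55%). With the amounts the other way round, 283 of 12156 passed in set A (2.33%) and 153 of 12221 in set B (1.25%). The genes lower in GFAP-IL6 mice went from at most 2 to 92 and 78 in set A and to 24 and 24 in set B. The matched and crossed comparisons share libraries, so their values are set side by side without a test of the difference.

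**Figure D5:**
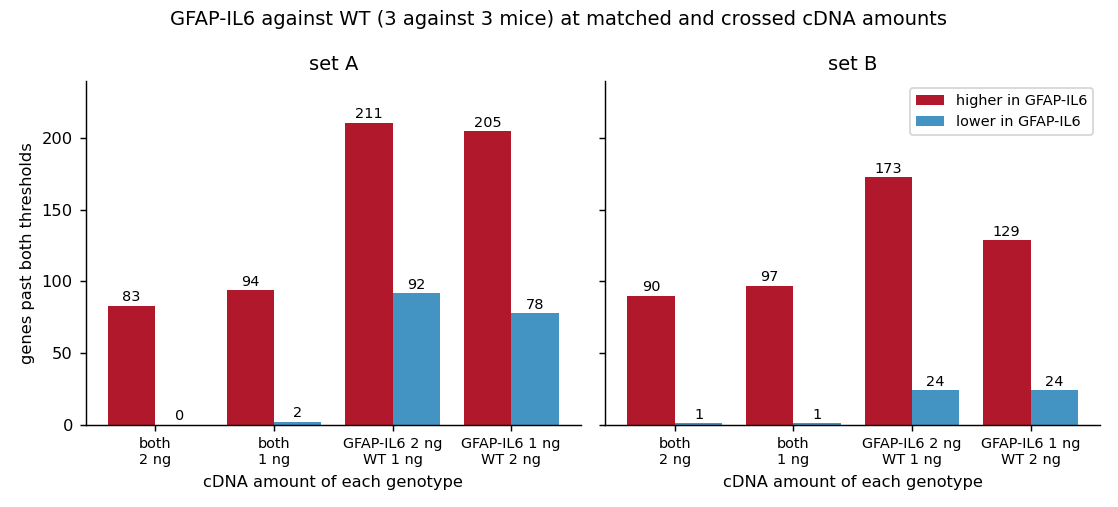
Number of genes past both thresholds (y axis, from 0) in GFAP-IL6 against WT, 3 mice each, for 4 pairings of cDNA amounts in sets A and B. Red bars are genes higher and blue bars genes lower in GFAP-IL6 mice, and genes lower number 0 to 2 at matched amounts and 24 to 92 at crossed amounts.

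Named genes show what was gained. Hbb-bs was at -0.05 and -0.09 between genotypes at matched 2 ng and 1 ng of set A, at -1.72 with GFAP-IL6 at 2 ng and WT at 1 ng, and at 1.56 the other way round. In set B the 4 values were -0.09, -0.08, -1.28 and 1.10. All 4 hemoglobin genes passed as lower in GFAP-IL6 mice in the first crossing and as higher in the second, in both sets, and none passed at matched amounts. Pgk1 was at -0.03 and -0.11 at matched amounts of set A and at 1.24 and -1.40 at crossed amounts. Mitochondrial tRNA genes had 12 that passed as lower with GFAP-IL6 at 2 ng and WT at 1 ng in set A, 1 that passed as higher the other way round, and none in either crossing of set B or at matched amounts. Without the threshold on the fold, the first crossing gave 13 of 14 lower in set A (median -1.29) and 11 of 14 lower in set B (median -0.609). The second gave 13 of 15 higher and 1 lower in set A (median 0.876), and 0 of 14 higher and 1 lower in set B (median 0.264).

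Genes that responded to the transgene were counted in the same way. Gfap, the astrocyte filament protein, was at 2.42 and 2.42 at matched and 2.4 and 2.42 at crossed amounts of set A, and between 2.37 and 2.57 in set B. Of the neuroinflammation genes, 28 to 33 of which were tested, 16 to 20 passed as higher in GFAP-IL6 mice at matched amounts and 19 or 20 at crossed amounts, with list medians from 1.41 to 1.53 and from 1.39 to 1.64. Of the microglia list 9 passed in each matched comparison and 6 to 11 in the crossed ones. In bulk tissue more cells of a type and more RNA per cell cannot be told apart. Single members did depend on the pairing: C1qa was at 1.68 and 1.45 at matched 2 ng and 1 ng of set A, at 0.51 with GFAP-IL6 at 2 ng and WT at 1 ng, and at 2.62 the other way round.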

How the data were processed

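3'Pool-seq libraries of frontal cortex total RNA from 6 mice were analysed, 4 libraries per mouse. After polyA trimming the authors used STAR 2.4 for alignment to mm10 and featureCounts to count uniquely aligned reads per gene of GENCODE vM6, and the deposited values are raw counts of 33000 genes without normalization. The strand setting of the counting is not given in the sources used here, so overlapping genes cannot be separated. Totals per library ran from 1524165 to 12256374, so 1 count stood for 0.0816 to 0.656 CPM before TMM scaling. The errors given cover counting and the spread between these libraries only, and the labels do not say which libraries were separate reactions.

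Counts were tested in edgeR 4.0.16 (R 4.3.3) after filterByExpr and TMM scaling, by the quasi-likelihood test with the mouse as a block and Benjamini-Hochberg adjustment over all genes tested. A gene was called at an adjusted p under 0.05. The SE is the absolute log2 fold change over the square root of F. CPM values of single libraries were TMM-scaled over 24 libraries, and the mean CPM behind classes and cut-offs used unscaled totals. Shares of counts were tested with the exact sign-flip permutation test over 64 flips, adjusted over 42 tests. Genotype comparisons had no block. Scripts were tested on simulated data. DESeq2 1.42.0, other scalings and filters, thinning to equal totals and leaving out each mouse were alternatives.

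Mouse pairs come from the labels, and the 2 ng and 1 ng libraries of a mouse deviated together (r from 0.284 to 0.499 over 8981 genes). Length classes use the gene length deposited with the counts. Positions, lengths of transcript parts and sequences are from GENCODE vM21 on mm10. In it 32593 of 33000 genes had a record, and 15949 of the 16010 genes with at least 24 counts had a transcript. Words of 40 bases were compared over the last 1000 bases. Named genes were the 8 largest in each direction called in both sets, the 5 largest with at least 50 CPM, and in each list the most abundant member and up to 2 called members with the largest smaller change, besides Gfap and Il6, and 4 of these genes are not reported here. Alas2, mt-Tc, mt-Tw and the mitochondrial genes were singled out after their values were seen. The comparison, the gene lists and the rule were chosen with earlier results of these data known.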

Additional observations from a re-analysis of the deposited data

Results flagged for a closer look

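In 26 of 202 within-mouse log2 ratios of 2 ng over 1 ng, one mouse lay outside the other 5 by Dixon's criterion, which chance meets in about 1 group in 20. Of these 26, 19 were in WT mouse 3, the mouse with the smallest share of the counts. Its log2 ratio of totals was -0.476 in set A and -0.815 in set B. In set A its ratios were -0.0972 for mt-Cytb, 0.25 for mt-Co1, -0.0115 for Aldoa, 0.348 for Snap25, -0.303 for Malat1 and -0.502 for Actb, and for shares of counts -1.32 for miscellaneous RNA, -0.244 for genes under 500 bases and -0.0313 for genes of 500 to 1000 bases. In set B they were 0.214 for mt-Co1, -0.731 for Slc32a1, -0.0752 for Malat1 and -0.314 for Gfap, and for shares -0.187 for mitochondrial ribosomal RNA, -0.273 for mitochondrial tRNA, 0.193 for pseudogenes and -0.0876 for genes under 500 bases. Without WT mouse 3, 1386 genes were called with one sign in both sets, against 1441 with it.

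The other mice found in this way were GFAP-IL6 mouse 2 in set A (0.56 for Hnrnpa2b1 and -0.174 for the share of pseudogenes), GFAP-IL6 mouse 1 (-2.57 for Mir7666 in set A, and 0.356 for Zfp560 in set B), GFAP-IL6 mouse 3 (0.0214 for Psma7 in set B) and WT mouse 1 (-0.478 for Tmem106c and 0.0268 for Cck in set B).

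The amount effect differed between sets for 1466 genes by the interaction of set and amount in edgeR, 32 of the 79 named genes among them. The following values are set B minus set A on the log2 scale. For genes higher with 1 ng in both sets, the difference was smaller in set B for Hbb-bs (0.441), Hba-a1 (0.468), Hba-a2 (0.578), Hbb-bt (0.309), mt-Tc (0.52), mt-Tm (0.622), n-R5-8s1 (0.798), Rpl23a (0.299), Rps14 (0.211), Cox6a1 (0.218), Grin2b (0.279), Nrgn (0.0889), Trf (0.452) and S100b (0.247). For genes higher with 2 ng in both sets it was smaller in set B for mt-Nd3 (-0.621), Ftl1 (-0.209), Gapdh (-0.191), Aldoa (-0.105), Hnrnpa2b1 (-0.359), Hnrnph2 (-0.65) and Mbp (-0.0616), and larger for Npy (0.205). Genes not called with one sign in both sets were B2m (-0.504), Snap25 (-0.472), Gria2 (-0.26), mt-Cytb (0.0935), Psma7 (0.158), Scn8a (0.242), Cck (0.237), Cst3 (0.0807), Malat1 (0.183) and Actb (0.391).

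Some classes of genes had medians on opposite sides of that of all genes in the sets, in all 6 mice of each set, and these differences were not tested. In set A and set B these medians were 0.102 and -0.0432 for the lowest GC quintile, -0.0344 and 0.0401 for the highest GC quintile, -0.0341 and 0.0297 for the shortest 3' untranslated regions and -0.0341 and 0.025 for the shortest last exons. They were 0.00287 and -0.00158 for genes with no shared 40-base word and -0.0445 and 0.0544 for genes with over 50% shared.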

How the results depend on the processing

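Among the values of named genes under all alternatives, 1643 kept direction and side of the threshold, 89 lost the call, 4 gained one and none reversed. Leaving out 1 mouse gave 3278 to 3823 calls in set A, 1948 to 2525 in set B, 1094 to 1386 in both sets with one sign and 1087 to 1486 for the difference between sets, and 0 calls in set A and 0 to 1 in set B for the difference between genotypes. Between sets it gave 3381 to 4124 calls at 2 ng and 471 to 642 at 1 ng. For GFAP-IL6 against WT it gave, in set A, 46 to 102 genes at 2 ng, 52 to 115 at 1 ng, 232 to 319 and 208 to 350 at crossed amounts with GFAP-IL6 at 2 ng and at 1 ng, and in set B 45 to 114, 45 to 113, 113 to 201 and 93 to 193. Without GFAP-IL6 mouse 3, the deepest, these counts fell to 46 and 52 at matched amounts of set A and to 45, 113, 93 and 45 in set B, and without GFAP-IL6 mouse 2 to 130 with GFAP-IL6 at 2 ng and WT at 1 ng and to 60 at matched 1 ng of set B.

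With the mouse block left out, calls were 2195 in set A, 771 in set B, 532 in both and 345 for the difference between sets. WT mice alone gave 2318, 1179 and 686, and GFAP-IL6 mice alone 1689 in set B and 954 in both. DESeq2 gave 1470 in set B, 919 in both and 387 between sets at 1 ng. An absolute log2 fold change above 0.5 left 1001, 409 and 271. A minimum of 10 counts in every library left 40, 162, 153 and 53 genes between genotypes in set A (matched 2 ng, the 2 crossings, matched 1 ng) and 39, 109 and 82 of the first 3 in set B. This filter tests fewer genes, and the fits of 1 genotype or without a mouse use fewer samples. WT and GFAP-IL6 mice with the same number share only that number (r from -0.0504 to 0.0217, 0 of 12 pairs above 0.1), and as a replicate block it left 59 genes at 2 ng of set B and moved no other count by over 1.5 times.

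Without mitochondrial genes in the total, the log2 ratio of shares reversed to 0.01145 and 0.0138 for genes of 1000 to 2000 bases in sets A and B, and in set B to -0.004834 at 100 to 1000 CPM and 0.005049 above 1000 CPM. In set B 0.004019 at 10 to 100 CPM no longer passed, and -0.01708 for long intergenic RNA, -0.02895 for antisense RNA and -0.01933 for genes of 4000 to 8000 bases now did. Thinning made antisense RNA pass in set A (0.04941). Class medians at 10 CPM or more were, in sets A and B, -0.006227 and -0.0008406 for protein-coding genes, -0.06831 and -0.002967 for long intergenic RNA, -0.402 and -0.2146 under 500 bases, -0.02385 and -0.0291 at 4000 to 8000 bases, 0.07847 and -0.05185 for the lowest GC quintile, -0.0332 and -0.03372 for the longest last exons and -0.001756 and -0.002276 with no shared word. In set A they were -0.02791 for the highest GC quintile and -0.0315 for the longest 3' untranslated regions, and in set B 0.03703 at 1000 to 2000 bases, -0.06954 over 8000 bases and 0.03896 with over 50% shared. Protein-coding genes alone gave -0.1966 under 500 bases in set A, 0.008788 above 1000 CPM in set B, and 0.004727 and -0.0005331 with no shared word. The causes were not tested. Alternatives for the sets compared at 1 amount, the shared words and protein-coding genes alone were chosen after seeing the data. The number of reactions behind each amount is not given, and depth limits genes under 10 CPM.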

Other observations

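Across pairs of library groups that differed in both set and amount, the 2 ng libraries of set A and the 1 ng libraries of set B differed at 36.3% of genes (median absolute log2 fold change 0.201), and the 2 ng libraries of set B and the 1 ng libraries of set A at 25.4% (0.166). Cytosolic ribosomal protein genes had no call between genotypes at matched amounts of either set by edgeR. With GFAP-IL6 at 1 ng and WT at 2 ng of set A, 25 of 84 were called higher and 3 lower in GFAP-IL6 mice, and with the amounts exchanged 7 were higher and 26 lower. In set B the same crossings gave 6 higher and 5 lower, and 10 higher and 9 lower. These calls have no threshold on the fold. Over all genes such calls numbered 1340 of 12156 and 1267 of 12451 in the 2 crossings of set A. In set B they numbered 451 of 12221 and 620 of 12671, and at matched amounts they ran from 125 to 140.

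Small gene types also held few members. Of 23 sense intronic genes tested in both sets 1 (4.35%) was higher with 1 ng in both, below the 6.81% of all genes. Of 2 immunoglobulin constant genes 1 was higher with 2 ng in both, against 4.63% of all genes, and 2 genes are too few to read.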
